A study of Homo sapiens with 6 samples.

Results

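The 10 genes of bone morphogenetic protein (BMP) signaling described here were followed in HGC27 cells, an established line from gastric cancer, with and without overexpression of the *FN1* 3′-UTR. They were taken by name from the 39739 gene rows of the deposited tables, and all 10 were found. They are the ligands *BMP2*, *BMP4* and *BMP7*, the receptors *BMPR1A* and *BMPR2*, and the target genes *ID1*, *ID2*, *ID3*, *SMAD6* and *SMAD7*. RNA-seq covered HGC27-FN1 3′-UTR cells with 3 libraries, made from cells that a lentivirus had given the *FN1* 3′-UTR for stable overexpression and that puromycin had selected, and HGC27-control cells with 3 libraries. Both groups were grown in RPMI-1640 with fetal bovine serum, and the labels call the second group control without naming its vector. The labels do not say whether the replicates were separate cultures, so p-values measure only the spread between these libraries. The methods mention no selection of single clones, and the promoter that drives the transgene is not given in the sources used here.

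BMP ligands are secreted dimers of the TGFβ superfamily. They bring type I receptors such as BMPR1A together with the type II receptor BMPR2, and the active type I receptor phosphorylates SMAD1, SMAD5 and SMAD9, which enter the nucleus with SMAD4. The *ID* genes are among the most direct targets of this pathway, and *SMAD6* and *SMAD7* are targets that encode inhibitors of it. BMP ligands and their antagonists are known to pattern the gut, and BMP signaling is known to hold stem cell renewal in check in its epithelium.

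Of the 3 ligands, 1 passed the test in these cells. *BMP4* was 2.86-fold higher in HGC27-FN1 3′-UTR cells by mean reads per kilobase and per 1000000 reads (RPKM), while *BMP2* and *BMP7* did not pass the test. The targets *ID1*, *ID2*, *SMAD6* and *SMAD7* rose by smaller amounts, between 1.24 and 1.42-fold, and *ID3*, 1.24-fold higher on average, narrowly missed the threshold. Neither receptor passed the test. The test was limma, a linear model fitted to log2(RPKM + 0.1) of all 23299 tested genes, with a threshold of 0.05 on the adjusted p. By this rule 5 of the 10 genes were higher in HGC27-FN1 3′-UTR cells and 0 were lower, and of all tested genes 5.62% were higher and 7.36% lower (1310 and 1715 genes). Median-ratio scaling of the libraries turned that split over all genes to 1696 higher and 1330 lower, with 6 members higher and 0 lower. With limma's voom on recovered reads, 7 of the 10 members were higher and 0 lower. Of the 23299 genes, voom called 2762 higher and 2343 lower. The median log2 fold change of the members was 0.31, against -0.04 over all tested genes. With DEGs defined as genes whose log2 fold change exceeded 1 in size at an unadjusted p below 0.05, *BMP4* alone of the 10 was upregulated and 0 were downregulated, beside 1.65% and 0.815% of all tested genes.

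**Figure D1:**
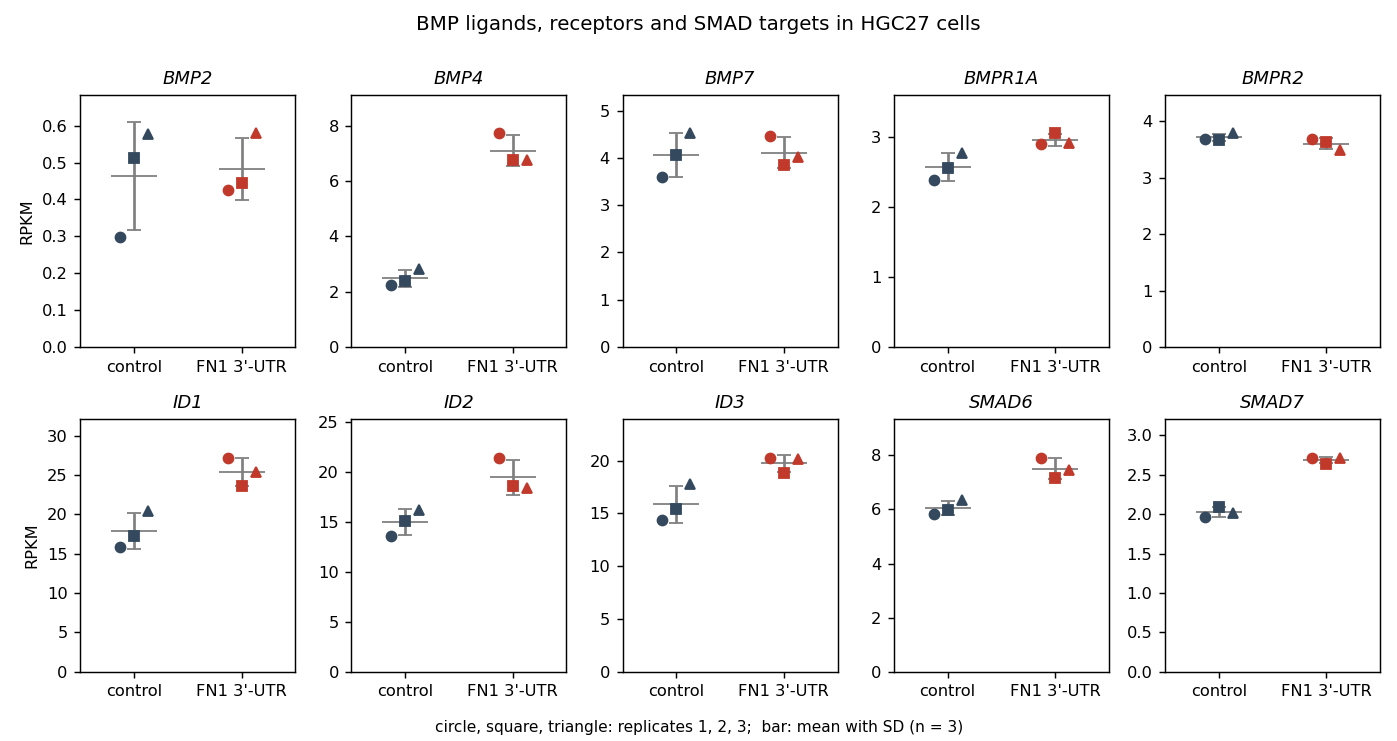
RPKM (vertical axes, from 0, a separate scale for each gene) of the 10 genes in HGC27-control (dark) and HGC27-FN1 3′-UTR (red) libraries, with symbols for replicates 1 to 3 and bars for the mean and SD of 3 libraries. *BMP4* stands between 6.76 and 7.74 RPKM in HGC27-FN1 3′-UTR cells and between 2.24 and 2.81 in control cells, and the 5 target genes have groups that do not overlap, whereas *BMP2*, *BMP7* and *BMPR2* overlap.

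The libraries held between 16357085 and 37037532 reads assigned to genes, which could be read back from RPKM because 1 read has a fixed worth per gene, and 3 reads in a library corresponded to 0.081 to 0.1834 per 1000000 reads. This floor covers counting error only. The gene *FN1* had a mean of 0.780 ± 0.037 RPKM against 0.516 ± 0.037 in control cells (SD, n = 3 each, limma adjusted p = 0.0292), and with any 1 library left out this adjusted p lay between 0.0614 and 0.0982. The tables hold 1 value for *FN1* and do not separate its 3′-UTR. Among markers of the line and of other cell types, the 6 epithelial genes were all higher in HGC27-FN1 3′-UTR cells, with summed levels of 18.4 to 27.3 RPKM against 2.66 to 3.04. Of 4 fibroblast genes, *LUM* and *COL1A1* were higher, with summed levels of 57.6 to 59.2 RPKM against 34.8 to 43.9. The 4 endothelial genes summed to at most 0.032 RPKM with *PECAM1* at 0 in every library, 3 blood genes to between 0.949 and 1.32 RPKM, and the mesenchymal marker *VIM* to between 285.7 and 324.2. The part of these differences in the results below was not tested, and in bulk RNA a larger share of expressing cells cannot be told apart from more RNA per cell.

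Short promoter stretches show the sequence features by which SMAD proteins are known to recognise DNA. SMAD proteins bind a short box with the letters GTCT, which on the opposite strand of the promoter reads as AGAC. Such boxes placed head to head form the palindrome GTCTAGAC. SMAD1 and SMAD5 also bind GC-rich elements, of which the first searched here was GGCGCC. The second such element was GGAGCC, which on the opposite strand of the promoter reads as GGCTCC. All were searched on both strands from 250 bases before to 50 bases after each start in 35116 promoters of RefSeq on GRCh38.p14, where 12 promoters of 8 members were found. *BMP2* and *BMP7* had no entry. The palindrome was found in 0.202% of all promoters and, among the members, in that of *SMAD6*. GGAGCC was found in 36.0% of all promoters and in 6 of the 12 member promoters, which belong to 6 members. GGCGCC was found in 19.2% and in 2 of the 12, those of *BMP4* and *BMPR2*. The short box GTCT was found in 84.0% and in 11 of the 12, which belong to 7 members. Members with several promoters had more chances of a match, so the counts by promoter are the ones to set beside these shares. The palindrome contains the short box, so these searches overlap. The stretches below, 30 bases each and written 5′ to 3′ on the strand of the gene, are shown as examples of the searched letters, in capitals, before RefSeq starts of *SMAD6*, *ID1*, *ID3* and *BMP4*. The tables' gene rows begin elsewhere, so that the *BMP4* and *ID3* stretches lie inside these rows and the *SMAD6* and *ID1* stretches overlap their first bases.
*SMAD6*, chr15:66702205-66702234, forward strand, positions -31 to -2 from the start: gccgcGGAGCCgccaaagtGTCTAGACtgg
*ID1*, chr20:31605254-31605283, forward strand, positions -35 to -6 from the start: tgtttataaaAGACaagctgtGGCTCCgca
*ID3*, chr1:23559651-23559680, reverse strand, positions -179 to -150 from the start: ctttgaatccgcGGCTCCgcgGTCTtcggc
*BMP4*, chr14:53955265-53955294, reverse strand, positions -244 to -215 from the most upstream of 3 starts, the first of 2 matches there: ccggggaacccgGGCGCCcgccccttctac
The *SMAD6* stretch holds both the GC-rich element and the palindrome, and the *ID1* and *ID3* stretches each hold a GC-rich element beside a single box. Among the other members, the promoter of *BMPR2*, which did not pass the test, also holds the box and both GC-rich elements, and that of *ID2*, which rose, holds the box but neither GC-rich element. Promoters of *SMAD7*, which rose, hold the box and GGAGCC. That of *BMPR1A*, which did not pass the test, holds none of the searched letters. Such a match is a description of the sequence and not a site of binding in these cells.

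Ligands. *BMP4*, a ligand active in gut and mesoderm development, is at chr14:53949736-53958761 on the reverse strand (GRCh38). Its RPKM was 7.74, 6.76 and 6.78 in HGC27-FN1 3′-UTR replicates 1 to 3 and 2.24, 2.401 and 2.81 in control replicates 1 to 3. Every HGC27-FN1 3′-UTR library was therefore more than 2-fold above every control library. The means were 7.09 ± 0.558 and 2.48 ± 0.296 RPKM (SD, n = 3 each), with 1509 and 703 reads. The log2 fold change was 1.48 (SE 0.098, 95% interval 1.24 to 1.72, limma adjusted p = 9.47e-04). With any 1 library left out the log2 fold change lay between 1.41 and 1.57 and the adjusted p from limma between 0.00218 and 0.00872.

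*BMP7*, a ligand best known from kidney and bone, is at chr20:57168748-57266629 on the reverse strand. Its RPKM was 4.47, 3.84 and 4.01 in HGC27-FN1 3′-UTR replicates 1 to 3 and 3.60, 4.07 and 4.52 in control replicates 1 to 3. The groups overlapped, with the highest value of all in control replicate 3. On the log2 scale the groups differed by 0.02 (SE 0.098, 95% interval -0.22 to 0.26, limma adjusted p = 0.927), so that a change as large as that of *BMP4* lay outside the interval.

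*BMP2*, the closest relative of *BMP4* among the ligands, is at chr20:6767664-6780280 on the forward strand and had the lowest level of the 10 genes. Its RPKM was 0.424, 0.443 and 0.580 in HGC27-FN1 3′-UTR replicates 1 to 3 and 0.298, 0.514 and 0.577 in control replicates 1 to 3, from 125 and 158 reads per group. The groups overlapped, and nearly the whole range of the HGC27-FN1 3′-UTR libraries lay within that of the control libraries. In the fit the log2 fold change came to 0.08 (SE 0.24, 95% interval -0.49 to 0.65, limma adjusted p = 0.872), and at this depth a moderate change in either direction was not detectable.

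The mix of the 3 ligands therefore differed between the groups. Of their summed RPKM, *BMP4* made up 61.3, 61.2 and 59.6% in HGC27-FN1 3′-UTR replicates 1 to 3 and 36.5, 34.4 and 35.5% in control replicates 1 to 3, and *BMP7* made up 35.1% ± 0.337 and 58.0% ± 0.760 (SD, n = 3 each). *BMP7* was thus the most abundant of the 3 in control cells and *BMP4* in HGC27-FN1 3′-UTR cells. The summed RPKM of the 3 ligands was 11.7 ± 0.837 and 7.01 ± 0.892 (SD, n = 3 each), a ratio of 1.67. With *BMP5* and *BMP8B* counted as well, *BMP4* took 42.4% ± 1.39 and 20.6% ± 1.17 of the sum (SD, n = 3 each). This larger share follows from the levels of the single ligands and is not a separate result. *BMP5*, named here after its values were seen, was expressed at 4.27 ± 0.0434 and 3.73 ± 0.252 RPKM (SD, n = 3 each, limma adjusted p = 0.0847).

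**Figure D2:**
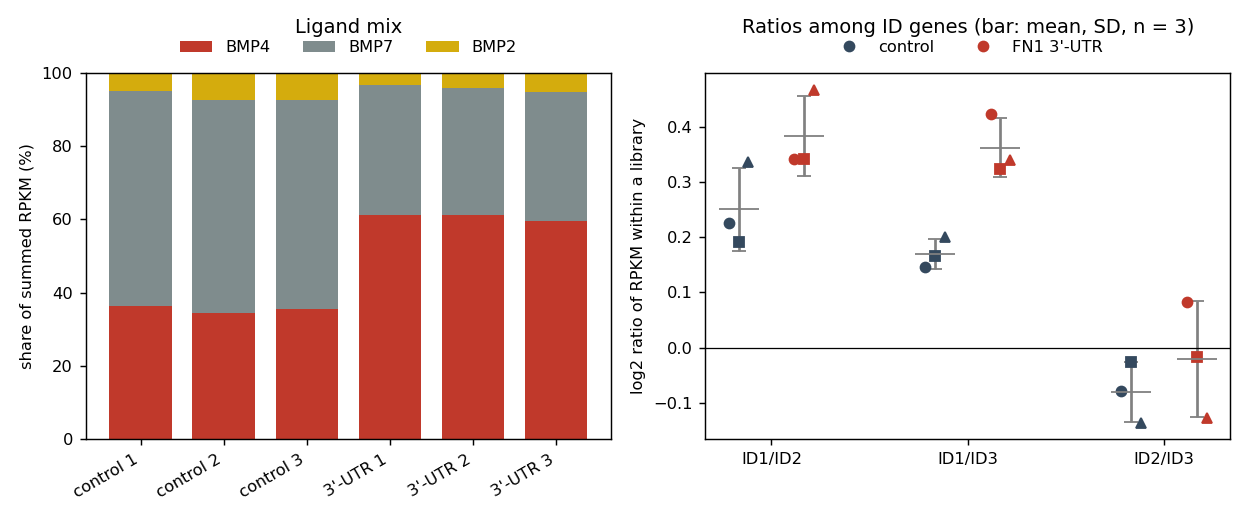
Left, the share (%) of *BMP4*, *BMP7* and *BMP2* in their summed RPKM in each of the 6 libraries, in which *BMP4* takes 34.4 to 36.5% in control and 59.6 to 61.3% in HGC27-FN1 3′-UTR libraries. Right, the log2 ratio of RPKM within a library between pairs of *ID* genes, with symbols for replicates 1 to 3 and bars for the mean and SD of 3 libraries, where the ratios of *ID1* to *ID2* and to *ID3* do not overlap between groups.

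Of the other 11 ligands of the family on the list, 9 were found here and 5 reached the minimum of 0.1 RPKM in 3 or more libraries. Of these 5, 1 passed the test. *BMP8B* fell from 1.32 ± 0.052 to 0.775 ± 0.083 RPKM (SD, n = 3 each). That is -0.71 on the log2 scale (limma adjusted p = 0.0101, 0.0512 without control replicate 2). *BMP8B* and *BMP8A* are near-identical copies, so reads may have been split between them. *BMP8A* had a log2 fold change of -0.10 (limma adjusted p = 0.789).

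Receptors. *BMPR1A*, a type I receptor with high affinity for BMP2 and BMP4, is at chr10:86756650-86932838 on the forward strand. Its RPKM was 2.90, 3.06 and 2.92 in HGC27-FN1 3′-UTR replicates 1 to 3 and 2.38, 2.56 and 2.78 in control replicates 1 to 3. The groups did not overlap, but control replicate 3 came close to the HGC27-FN1 3′-UTR libraries. The fitted log2 fold change was 0.20 (SE 0.070, 95% interval 0.03 to 0.36, limma adjusted p = 0.121), and voom on recovered reads gave an adjusted p of 0.00402.

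*BMPR2*, the type II receptor specific to BMP ligands, is at chr2:202376936-202567751 on the forward strand. Its RPKM was 3.68, 3.63 and 3.49 in HGC27-FN1 3′-UTR replicates 1 to 3 and 3.68, 3.67 and 3.79 in control replicates 1 to 3. All 6 values lay within 3.49 to 3.79 RPKM, and the groups overlapped. The change on the log2 scale was -0.04 (SE 0.046, 95% interval -0.15 to 0.07, limma adjusted p = 0.601).

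Of 8 further receptors and co-receptors, 6 were tested and 1 passed the test. *RGMB*, a co-receptor anchored in the membrane that binds BMP2 and BMP4, fell from 1.73 ± 0.036 to 1.25 ± 0.017 RPKM (SD, n = 3 each). This was -0.43 on the log2 scale (limma adjusted p = 0.0112, 0.0538 without control replicate 2). The type I receptor *ACVR1* had a log2 fold change of 0.14 (limma adjusted p = 0.369).

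*ID* genes. The ID proteins carry a helix-loop-helix domain without a DNA-binding region and hold E proteins such as TCF3 away from DNA. The 3 *ID* genes had the highest levels of the 10 members in both groups, and their order by mean RPKM was *ID1*, *ID3* and *ID2* in both. In control cells these means were 17.9 ± 2.33, 15.9 ± 1.75 and 14.99 ± 1.31 RPKM (SD, n = 3 each), so that neighbours in this order differed by less than the larger of their SDs.

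*ID1* is at chr20:31605283-31606515 on the forward strand. Its RPKM was 27.2, 23.6 and 25.5 in HGC27-FN1 3′-UTR replicates 1 to 3 and 15.9, 17.3 and 20.5 in control replicates 1 to 3. The groups did not overlap, and control replicate 3 was the nearest to the other group. The log2 fold change was 0.51 (SE 0.099, 95% interval 0.27 to 0.75, limma adjusted p = 0.0239).

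*ID2* is at chr2:8678845-8684453 on the forward strand. Its RPKM was 21.5, 18.6 and 18.4 in HGC27-FN1 3′-UTR replicates 1 to 3 and 13.6, 15.2 and 16.2 in control replicates 1 to 3. All HGC27-FN1 3′-UTR libraries were higher, with a smaller gap than for *ID1*. On the log2 scale the groups differed by 0.38 (SE 0.085, 95% interval 0.17 to 0.58, limma adjusted p = 0.0366). Its antisense gene *ID2-AS1* shares 38 exonic bases with it and had a mean of 35.8 reads per library against 997.2 for *ID2*.

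*ID3* is at chr1:23557918-23559794 on the reverse strand. Its RPKM was 20.3, 18.8 and 20.1 in HGC27-FN1 3′-UTR replicates 1 to 3 and 14.4, 15.4 and 17.8 in control replicates 1 to 3. The groups did not overlap, and control replicate 3 was again nearest to the other group. The fitted log2 fold change was 0.32 (SE 0.081, 95% interval 0.12 to 0.51, limma adjusted p = 0.0509).

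Whether the 3 *ID* genes moved by unequal amounts was examined through their ratios within each library, which do not depend on depth. The log2 ratio of *ID1* to *ID3* was 0.36 ± 0.054 in HGC27-FN1 3′-UTR and 0.17 ± 0.027 in control libraries (SD, n = 3 each, difference 0.19). That of *ID1* to *ID2* was 0.38 ± 0.073 and 0.25 ± 0.075 (SD, n = 3 each, difference 0.13), with only a narrow gap between the groups. An exact permutation test of 3 libraries against 3, two-sided, gave p = 0.1 for both, the smallest value it allows (adjusted p = 0.15 over 3 ratios, exact). The ratio of *ID2* to *ID3* overlapped between the groups, with a difference of 0.06 (exact permutation test, two-sided, p = 0.4).

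The summed RPKM of *ID1*, *ID2* and *ID3* was 64.6 ± 4.03 in HGC27-FN1 3′-UTR and 48.8 ± 5.33 in control cells (SD, n = 3 each). Their partners *TCF3*, *TCF4* and *TCF12* summed to 72.6 ± 1.11 and 72.7 ± 2.44 RPKM (SD, n = 3 each). The ratio of the sums was therefore 0.891 ± 0.042 and 0.670 ± 0.051, and the lowest HGC27-FN1 3′-UTR library, at 0.853, lay above the highest control library, at 0.723. Among the partners, *TCF12* rose by 0.18 on the log2 scale (limma adjusted p = 0.0224, and between 0.0535 and 0.0841 with any 1 library left out).

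SMAD feedback genes. *SMAD6*, which encodes an inhibitor that acts mainly on BMP type I receptors and on SMAD1, is at chr15:66702228-66782848 on the forward strand. Its RPKM was 7.91, 7.17 and 7.45 in HGC27-FN1 3′-UTR replicates 1 to 3 and 5.83, 5.98 and 6.34 in control replicates 1 to 3. All HGC27-FN1 3′-UTR libraries were higher. In the fit the log2 fold change came to 0.31 (SE 0.054, 95% interval 0.18 to 0.44, limma adjusted p = 0.0178), from 4469 and 4704 reads.

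*SMAD7*, which encodes an inhibitor of both BMP and TGFβ receptors, is at chr18:48919853-48950711 on the reverse strand. Its RPKM was 2.72, 2.64 and 2.71 in HGC27-FN1 3′-UTR replicates 1 to 3 and 1.96, 2.09 and 2.01 in control replicates 1 to 3. These groups had the smallest SDs in RPKM among the members that rose, and the gap between them exceeded the range within either. The change on the log2 scale was 0.39 (SE 0.055, 95% interval 0.26 to 0.53, limma adjusted p = 0.00947), from 694 and 675 reads.

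All 5 target genes, together with *BMP4* and *BMPR1A*, had groups that did not overlap with HGC27-FN1 3′-UTR higher, 7 of the 10 members. Over all tested genes this was so for 14.3%, and 21.7% had groups apart with HGC27-FN1 3′-UTR lower, as 0 members did. The calls of *BMP4* and *SMAD7* held with any 1 library left out, the adjusted p from limma for *SMAD7* staying between 0.0319 and 0.0396. The others depended on single libraries. Without HGC27-FN1 3′-UTR replicate 1 or 3, or control replicate 1 or 2, the adjusted p from limma was 0.077, 0.0679, 0.0531 and 0.0854 for *ID1* and 0.0574, 0.0528, 0.0507 and 0.0726 for *SMAD6*. For *ID2* it was 0.0852, 0.0741 and 0.0639 without HGC27-FN1 3′-UTR replicate 1, 2 or 3 and 0.0768 and 0.102 without control replicate 1 or 2. Without control replicate 3 the call of *ID3* was gained instead, at 0.0189. The log2 fold changes of these 4 genes stayed between 0.25 and 0.61 in all 6 of these fits.

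Control replicate 3 was the highest control library for 9 of the 10 members and control replicate 1 the lowest for 9 of them. Over all tested genes this was so for 38.4 and 45.9%. The exception for replicate 3 was *SMAD7*, which was highest in control replicate 2. The control libraries also differed in depth, with 22332816, 30817381 and 37037532 reads in replicates 1 to 3. Within HGC27-FN1 3′-UTR cells, replicate 1, the shallowest at 16357085 reads, was highest for 8 of 10 members against 35.4% of all tested genes. The part of depth in these differences was not tested.

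By mean RPKM, which is scaled by gene length, the members in control cells were ordered *ID1*, *ID3*, *ID2*, *SMAD6*, *BMP7*, *BMPR2*, *BMPR1A*, *BMP4*, *SMAD7* and *BMP2*. *BMP4* stood at rank 8 in control cells and at rank 5 in HGC27-FN1 3′-UTR cells, next to *SMAD6* at 7.51 ± 0.375 RPKM (SD, n = 3), from which it differed by less than its own SD. *BMP4* and *BMPR1A* did not differ beyond their spread in control cells (2.48 ± 0.296 and 2.57 ± 0.197 RPKM, SD, n = 3 each), nor did *BMP7* and *BMPR2* (4.06 ± 0.465 and 3.71 ± 0.066). The order of the other 9 members was the same in both groups.

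The other genes of the pathway, a list of 58 of which 56 were found and 45 were tested, were read by role. Of the 45, limma called 6 higher and 7 lower at the threshold of 0.05, beside 5.62 and 7.36% of all tested genes. Their median log2 fold change was -0.05, close to the -0.04 of all tested genes. Those that rose were *NOG*, *NBL1*, *SOST*, *BAMBI*, *ATOH8* and *TCF12*, and those that fell were *BMP8B*, *RGMB*, *SMAD5*, *SMAD9*, *SMURF2*, *TOB1* and *HEY1*.

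**Figure D3:**
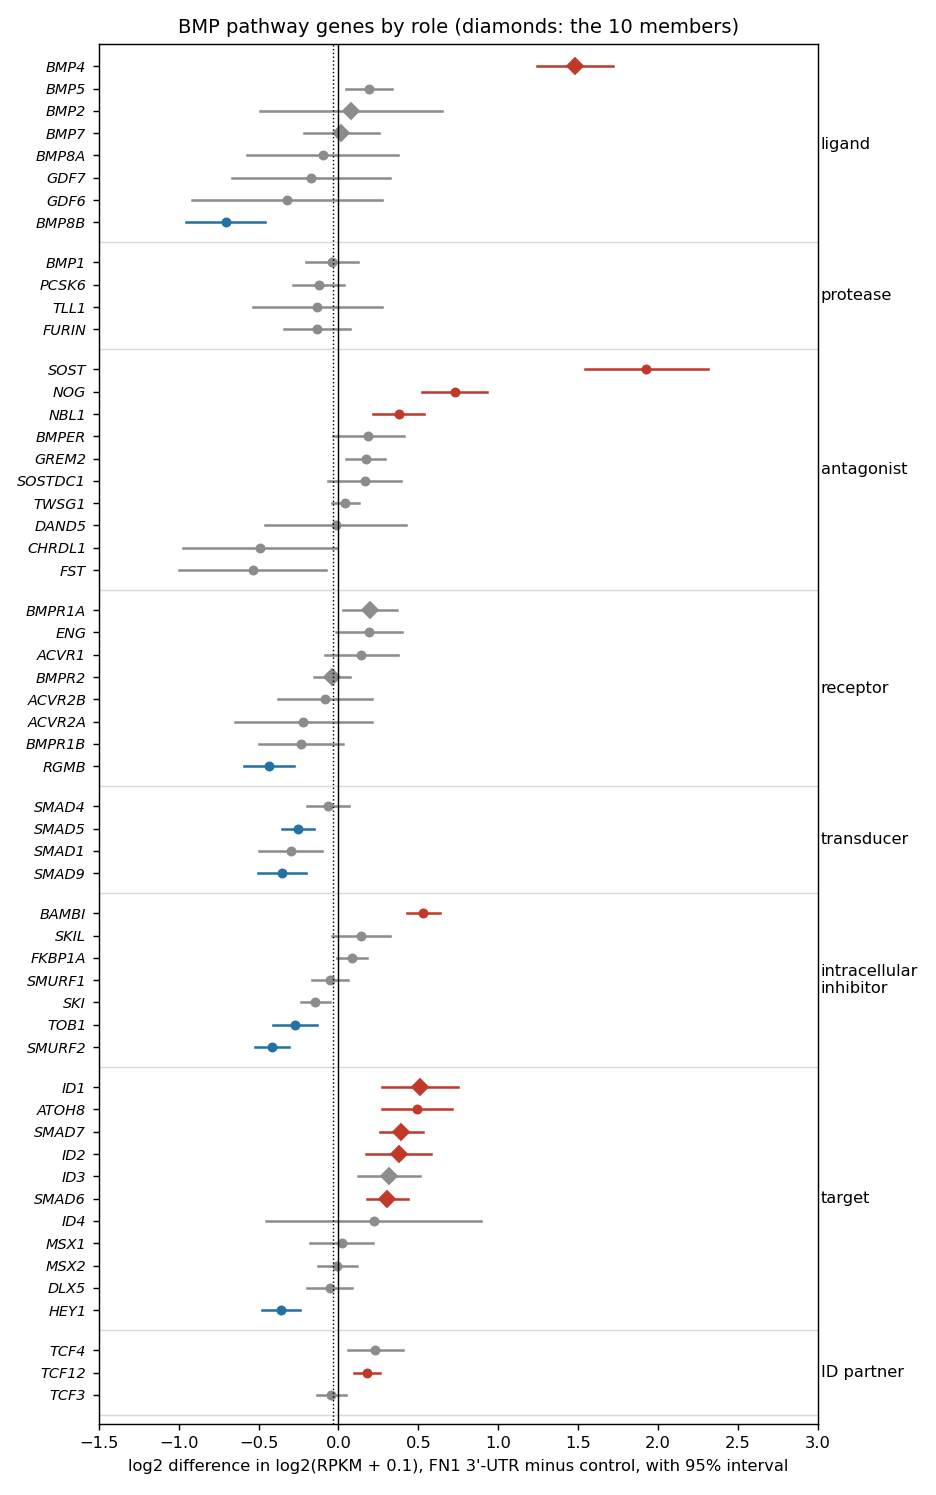
Log2 difference between HGC27-FN1 3′-UTR and control cells with its 95% interval from limma for the 10 members (diamonds) and 45 other tested genes of the pathway (circles), by role; red marks genes higher and blue genes lower at an adjusted p under 0.05, and the dotted line is the median of all tested genes, -0.04. *SOST* (1.93), *BMP4* (1.48) and *NOG* (0.73) lie farthest to the right, and *BMP8B* (-0.71) lies farthest to the left.

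Extracellular antagonists act outside the cell, most of them by binding BMP ligands. Of 14 on the list, 10 were tested, and 3 rose and 0 fell by limma. The groups did not overlap for 6 with HGC27-FN1 3′-UTR higher and for 2 with it lower, beside 14.3 and 21.7% of all tested genes. With voom 0 were lower, beside 2343 of all 23299 tested genes. *NOG*, which encodes noggin and binds BMP4 with high affinity, had 21.2, 18.1 and 19.1 RPKM in HGC27-FN1 3′-UTR replicates 1 to 3 and 10.6, 11.9 and 12.7 in control replicates 1 to 3. Its log2 fold change was 0.73 (SE 0.085, limma adjusted p = 0.00545), and its level was above that of *BMP4* in every library. *SOST*, which encodes sclerostin, known mainly as an antagonist of Wnt signaling, had 2.29, 1.78 and 1.71 RPKM against 0.526, 0.395 and 0.376. Its log2 fold change of 1.93 (SE 0.16, limma adjusted p = 0.00194) was the only one of the list above 1, and it rests on 87 reads in the 3 control libraries together. *NBL1*, a member of the DAN family of antagonists, rose from 6.30 ± 0.559 to 8.20 ± 0.123 RPKM (SD, n = 3 each, limma adjusted p = 0.0181). For *NBL1* the adjusted p was 0.0636, 0.0628 and 0.0512 without HGC27-FN1 3′-UTR replicate 1, 2 or 3 and 0.0706 without control replicate 2. *GREM1*, another antagonist of BMP4, had 4 reads in HGC27-FN1 3′-UTR and 3 in control libraries together and was not tested.

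Of the 4 SMAD transducers 2 fell, and all 4 had groups that did not overlap with HGC27-FN1 3′-UTR lower, as 21.7% of all tested genes had. *SMAD5* had 5.15, 5.34 and 5.29 RPKM in HGC27-FN1 3′-UTR replicates 1 to 3 and 6.13, 6.48 and 6.26 in control replicates 1 to 3, a log2 fold change of -0.25 (SE 0.041, limma adjusted p = 0.0142). *SMAD9* had 5.66, 5.04 and 5.02 RPKM against 6.44, 6.997 and 6.72, a log2 fold change of -0.35 (SE 0.062, limma adjusted p = 0.0178). For both, the spread within a group was smaller than the gap between the groups. *SMAD1* had a log2 fold change of -0.30 that missed the threshold (limma adjusted p = 0.0626), and *SMAD4*, shared with the TGFβ pathway, had one of -0.07 (limma adjusted p = 0.477). Without HGC27-FN1 3′-UTR replicate 1 or control replicate 2 the adjusted p of *SMAD5* was 0.0553 and 0.0641. That of *SMAD9* was 0.0615 and 0.0557 without HGC27-FN1 3′-UTR replicate 2 or 3, and 0.0725 and 0.054 without control replicate 2 or 3. *SMAD1* passed without control replicate 1, at 0.044, with a minimum mean of 1 RPKM, at 0.0456, and with voom, at 0.00703.

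Of 7 inhibitors inside the cell or at its membrane, 1 rose and 2 fell. *BAMBI*, a receptor-like decoy without a kinase domain and itself known as a target of the pathway, had 12.4, 12.1 and 12.3 RPKM in HGC27-FN1 3′-UTR replicates 1 to 3 and 8.26, 8.19 and 8.90 in control replicates 1 to 3. Its log2 fold change was 0.53 (SE 0.042, limma adjusted p = 0.0017). *SMURF2*, a ubiquitin ligase that is brought to receptors by SMAD7, fell from 4.25 ± 0.087 to 3.16 ± 0.046 RPKM (SD, n = 3 each, log2 fold change -0.42, limma adjusted p = 0.00422). *TOB1*, known to hold back SMAD-driven transcription, fell by 0.27 on the log2 scale (limma adjusted p = 0.0299). For *TOB1* it was 0.0717 and 0.0753 without HGC27-FN1 3′-UTR replicate 1 or 2 and 0.0545, 0.0935 and 0.0817 without control replicate 1, 2 or 3.

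**Figure D4:**
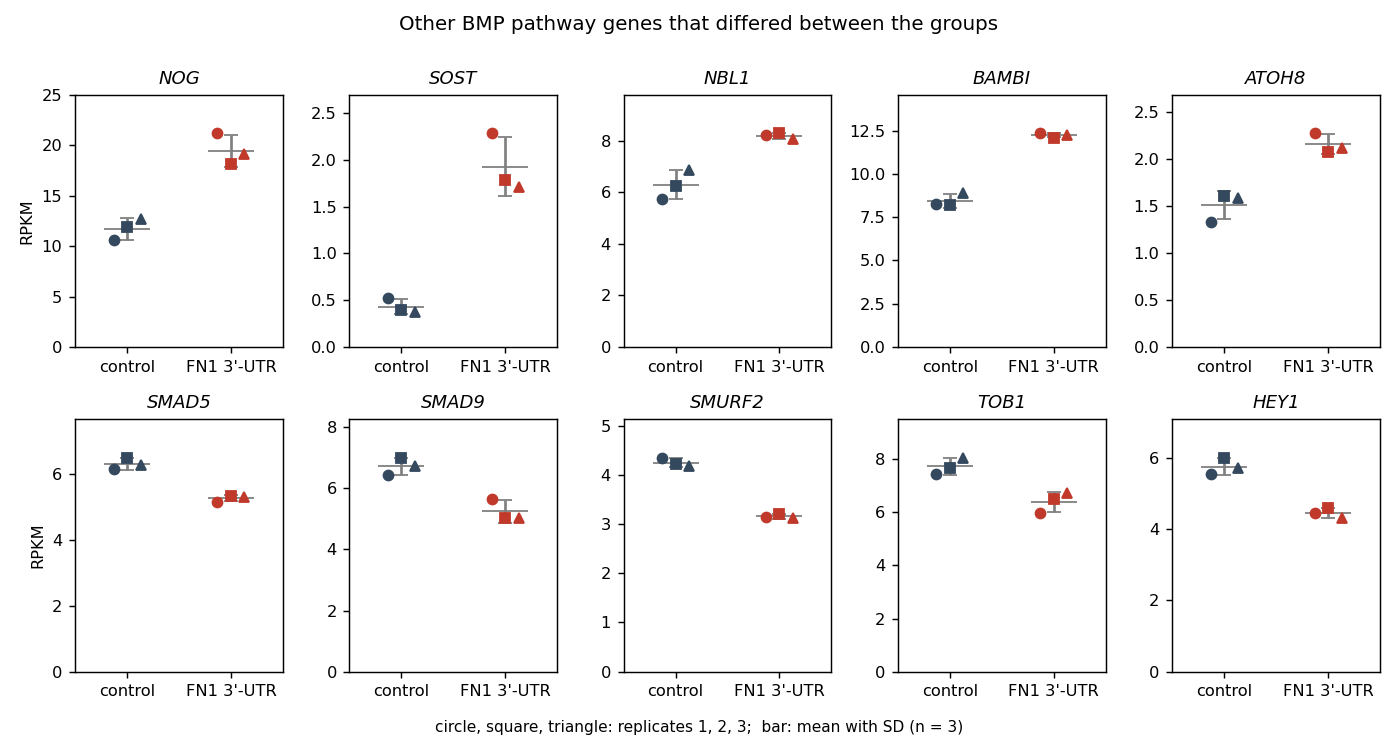
RPKM (vertical axes, from 0, a separate scale for each gene) of 10 pathway genes outside the members that passed the test, in HGC27-control (dark) and HGC27-FN1 3′-UTR (red) libraries, with symbols for replicates 1 to 3 and bars for the mean and SD of 3 libraries. The first 5 genes, from *NOG* to *ATOH8*, are higher in every HGC27-FN1 3′-UTR library and the last 5, from *SMAD5* to *HEY1*, are lower in every one. *BMP8B*, *RGMB* and *TCF12*, which also passed the test, are not shown.

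The other targets did not move as one group. Of 7 on the list 6 were tested, and 1 rose and 1 fell. *ATOH8*, a bHLH factor known as a direct target of BMP signaling, had 2.27, 2.08 and 2.11 RPKM in HGC27-FN1 3′-UTR replicates 1 to 3 and 1.33, 1.60 and 1.58 in control replicates 1 to 3. Its log2 fold change was 0.49 (limma adjusted p = 0.0204, 0.0697, 0.0563 and 0.0562 without HGC27-FN1 3′-UTR replicate 1, 2 or 3 and 0.0545 without control replicate 2). *HEY1*, which responds to Notch as well as BMP signaling, fell from 5.74 ± 0.236 to 4.45 ± 0.149 RPKM (SD, n = 3 each, log2 fold change -0.36, limma adjusted p = 0.00913). The homeobox genes *MSX1* and *MSX2*, named here after their values were seen, were expressed at 27.1 ± 2.45 and 84.5 ± 2.66 RPKM in control cells and had log2 fold changes of 0.02 (95% interval -0.18 to 0.22) and -0.01 (95% interval -0.13 to 0.12). For *MSX2* this sign turned with median-ratio scaling, which gave 0.028. The processing proteases of the list (*FURIN*, *PCSK6*, *BMP1* and *TLL1*, also named after their values were seen) had log2 fold changes between -0.14 and -0.04. None of the 4 passed the test at an adjusted p under 0.05 from limma, or with voom (0 of 4 each). Of all 23299 tested genes, voom called 2762 higher and 2343 lower.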

How the data were processed

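RNA-seq of 6 HGC27 libraries was analysed. Strand-specific libraries were made by the authors, whose deposited tables give RPKM per gene on GRCh38. The submitters' processing notes name Trimmomatic 0.36, STAR 2.5.3a and featureCounts of Subread 1.5.1, without their roles. The annotation release and the strand setting of the counting are not given in the sources used here. Values were transformed to log2(RPKM + 0.1), which understates the change of low genes. Genes with at least 0.1 RPKM in 3 or more libraries were kept, and all 10 members passed. The model (limma 3.58.1, R 4.3.3) held the group alone, with a trended prior variance, two-sided, with Benjamini-Hochberg adjustment over 23299 genes. Reads were recovered from the deposited RPKM as whole multiples of 1 read, which held for 100% of values above 0 within 0.01 read. Replicates of a group differed by more than sampling noise (chi-square per gene 2.67 to 6.19).

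The members and gene lists were chosen with earlier results of these data known. The rule for named genes took the 10 members, pathway genes with an adjusted p under 0.05, and *SMAD1*, *SMAD4*, *ACVR1* and *GREM1* for context. The fit was tested on simulated reads. Alternatives were the pseudocount, the filter, median-ratio scaling, voom, the replicate block, each library left out and the DEG criteria. Ratios used exact permutation tests in scipy 1.17.1. Promoter sequences are those of RefSeq on GRCh38.p14. Spreadsheet dates stood in place of 28 gene names and 2 names were repeated, none of them used here.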

Additional observations from a re-analysis of the deposited data

How the results depend on the processing

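The number of members higher at an adjusted p under 0.05 from limma was 5. It was between 4 and 7 under both other pseudocounts, both other filters, median-ratio scaling and voom on recovered reads, and between 2 and 6 with 1 library left out. A replicate block gave 1, as did the DEG criteria, *BMP4* in both cases. For the pathway list, 6 genes were higher and 7 lower. The block gave 3 and 3, the DEG criteria 1 and 0, voom 11 and 8, and leaving out 1 library 3 to 5 and 2 to 7. With the block, 564 and 598 of all tested genes were higher and lower, against 1310 and 1715 without it. Voom called 2762 of all tested genes higher and 2343 lower. With 1 library left out, 501 to 927 of all genes tested in that fit were higher and 470 to 1015 lower. The counts of members and pathway genes are to be read beside these. Same-numbered libraries showed little common deviation (correlations across genes 0.0024, 0.0211 and 0.0103). Over genes with a mean of at least 1 RPKM these correlations were 0.034, -0.0121 and -0.0231. The labels do not say whether the numbers pair the libraries, and correlations from 3 libraries per group cannot settle it. With 1 library left out, the differences in log2 ratio were 0.16 to 0.21 for *ID1* to *ID3*, 0.092 to 0.18 for *ID1* to *ID2* and 0.0074 to 0.11 for *ID2* to *ID3*. Signs turned only for genes that did not pass the test. With 1 library left out, log2 fold changes lay between -0.16 and 0.23 for *BMP2*, between -0.064 and 0.10 for *BMP7*, between -0.042 and 0.087 for *MSX1* and between -0.045 and 0.044 for *MSX2*. *MSX2* also turned with median-ratio scaling (0.028) and voom (0.026). *ID2* lost its call without a filter (adjusted p = 0.0577 from limma), and *ID3* gained one with a minimum mean of 1 RPKM (0.0362), median-ratio scaling (0.0287), voom (3.09e-04) and a pseudocount of 1 (0.0499). *BMP2* was not tested at that minimum mean. Depth limits *BMP2*, with 125 reads in HGC27-FN1 3′-UTR and 158 in control libraries, and *SOST*, with 301 and 87.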
